A study of Homo sapiens with 4 samples.

Results

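The genes described here are the tumour necrosis factor (TNF) superfamily ligands and their receptors: every protein-coding gene whose symbol starts with TNFSF or TNFRSF, together with TNF, LTA, LTB, LTBR, CD40, CD40LG, CD70, CD27, FAS and FASLG. These were 43 genes, 18 of ligands and 25 of receptors. Their peaks of open chromatin were taken as all peaks inside a gene or within 10 kb of either end, which gave 292 of the 190348 peaks of the series, 104 at ligand genes and 188 at receptor genes. Each of the 43 genes had at least 1 peak, 14 peaks belonged to more than 1 of the genes, and 0 belonged to both a ligand and a receptor gene. At the edge of the distance, the farthest peak kept lay 9966 bp from TNFRSF11B (6.71 ± 0.519 CPM in sg1 and 7.75 ± 1.40 CPM in control libraries), and the nearest peak not kept lay 10026 bp from TNFRSF10C (9.55 ± 1.52 CPM in sg1 and 9.45 ± 0.177 CPM in control libraries; SD, n = 2 each).

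TNF superfamily ligands are trimeric membrane proteins, several of which are cut off the cell surface and act as cytokines. Their receptors recruit TRAF adaptors, which lead to NF-kB and MAP kinase signalling, or, where they carry a cytoplasmic death domain, can start caspase-dependent cell death; decoy receptors bind ligand without passing on a full signal. Most of the family is studied in lymphocytes and myeloid cells, but breast cancer cells also use TNF, TRAIL, FAS and lymphotoxin receptors, and NF-kB in turn binds at several of these genes.

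Chromatin accessibility was measured by ATAC-seq, in which the Tn5 transposase cuts open DNA, in LM2 cells, a human breast cancer line derived from MDA-MB-231 and selected for a greater tendency to form lung metastases. The sg1 group carries a deletion of CECR2, made with guide sg1 (labelled as deletion 1), and the control group a non-targeting guide; CECR2 is a bromodomain protein that works with ISWI chromatin remodellers. Both groups grew as monolayers in DMEM with serum, penicillin and puromycin, and each has 2 libraries of 50000 cells. A single guide was used, and no label says whether the sg1 cells were 1 clone or a pool, or whether replicates came from separate cultures; p-values then measure only how far these libraries differ, and that spread may be technical.

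The sg1 libraries held 58341297 and 52150389 counts, against 25610655 and 18950793 in the control libraries, with a median of 73 and 64 counts per peak in sg1 and 35 and 26 in control. Levels are TMM-scaled CPM (counts divided by library size), either of each library or as group means ± SD (n = 2), and a positive log2 fold change means higher in sg1; a peak is called lower or higher at an FDR of 0.05 by edgeR's quasi-likelihood test over 184717 peaks. Where an adjusted p stands below with no other name, it is this test's, adjusted by Benjamini-Hochberg over all of those peaks. The peaks of CECR2 do not test whether the gene was edited: its tallest gene-end peak was at 3.76 ± 0.594 CPM in sg1 and 3.49 ± 0.146 CPM in control (log2 fold change 0.10, adjusted p = 0.770). Of the markers of the line, VIM, CD44, KRT18, EGFR, AXL and CAV1 were open at 19.8 to 79.7 CPM in sg1 and 17.2 to 85.6 CPM in control. In bulk chromatin, a smaller number of cells with an open site and less opening per cell cannot be told apart.

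A start window, the 250 bases before to 50 bases after an annotated transcription start, was available from RefSeq (GRCh38.p14) for 28 of the 43 genes, and 16 of these had a peak over it. The peak over the start was lower in sg1 for 2 genes, TNFSF13B and TNFRSF9, higher for 3, TNFSF18, TNFRSF1A and LTBR, and not called for the other 11. For scale, gene-end peaks genome-wide (23891 tested, at most 1 kb from an end) were lower in 7.28% of cases and higher in 21.2%. Whether the start peaks of the family differ from these shares was not tested. No window was used for CD40LG, CD70, TNFSF8, TNFSF12, TNFSF12-TNFSF13, CD40, TNFRSF4, TNFRSF10A to TNFRSF10D, TNFRSF11B, TNFRSF12A, TNFRSF13C and TNFRSF17. The 12 genes with no peak over a start window included TNF, LTA, LTB, FASLG, TNFSF14 and TNFRSF8. For each of the 5 genes with a called peak over a start window, 1 window is printed below, 5′ to 3′ on the gene's strand. The choice covers the genes at whose used start windows accessibility differed. TNFSF13B has 2 overlapping windows under the same peak. The one at lower coordinates is shown. Capitals mark matches, on either strand, to the NF-kB consensus, the AP-1 motif TGANTCA, the GC box GGGCGG or the TATA box TATAAA. The windows lie at chr13:108269379-108269678 (TNFSF13B, plus strand), chr1:173050892-173051191 (TNFSF18, minus), chr1:7940790-7941089 (TNFRSF9, minus), chr12:6342027-6342326 (TNFRSF1A, minus) and chr12:6383912-6384211 (LTBR, plus).
TNFSF13B: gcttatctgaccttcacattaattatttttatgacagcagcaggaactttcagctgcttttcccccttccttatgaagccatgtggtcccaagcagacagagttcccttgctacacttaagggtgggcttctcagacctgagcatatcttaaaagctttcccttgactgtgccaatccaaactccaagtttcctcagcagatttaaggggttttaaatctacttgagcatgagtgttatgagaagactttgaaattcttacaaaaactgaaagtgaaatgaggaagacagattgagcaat
TNFSF18: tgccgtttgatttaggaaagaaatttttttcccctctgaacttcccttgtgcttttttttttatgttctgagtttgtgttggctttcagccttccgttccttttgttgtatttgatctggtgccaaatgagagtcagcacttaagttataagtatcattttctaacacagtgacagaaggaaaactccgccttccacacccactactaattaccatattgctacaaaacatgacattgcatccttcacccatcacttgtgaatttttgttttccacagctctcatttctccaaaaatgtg
TNFRSF9: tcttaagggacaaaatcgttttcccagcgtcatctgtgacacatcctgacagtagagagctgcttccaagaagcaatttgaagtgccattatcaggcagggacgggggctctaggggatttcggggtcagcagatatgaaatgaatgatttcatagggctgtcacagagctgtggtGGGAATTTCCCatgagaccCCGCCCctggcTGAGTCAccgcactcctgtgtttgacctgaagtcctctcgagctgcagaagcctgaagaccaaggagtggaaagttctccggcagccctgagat
TNFRSF1A: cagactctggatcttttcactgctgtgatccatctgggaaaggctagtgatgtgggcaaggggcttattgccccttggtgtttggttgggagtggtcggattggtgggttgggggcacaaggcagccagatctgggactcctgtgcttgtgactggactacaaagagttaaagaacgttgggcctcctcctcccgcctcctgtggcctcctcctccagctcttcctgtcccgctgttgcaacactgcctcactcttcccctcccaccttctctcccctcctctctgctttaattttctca
LTBR: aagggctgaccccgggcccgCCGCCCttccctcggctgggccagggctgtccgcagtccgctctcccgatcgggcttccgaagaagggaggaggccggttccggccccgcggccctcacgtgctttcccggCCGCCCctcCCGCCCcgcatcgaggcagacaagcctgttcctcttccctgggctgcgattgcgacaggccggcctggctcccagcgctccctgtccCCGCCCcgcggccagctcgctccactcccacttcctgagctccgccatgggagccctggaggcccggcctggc
The TNFRSF9 window held the NF-kB consensus at 74 bases before the start (with an overlapping second match 1 base along), a GC box and an AP-1 motif. The LTBR window held 4 GC boxes and 74.3% G and C, and the windows of TNFSF13B, TNFSF18 and TNFRSF1A held none of the 4 motifs. TNFSF18 and TNFSF13B had the lowest G and C content of the 5, at 38% and 41%. Over the 28 genes with a used window, 10 of 37 start windows, from 8 genes, held the NF-kB consensus. Of 21957 RefSeq windows of the same length, 6.53% held it. Some windows of 1 gene overlap. The AP-1 motif was in 7 of the 37 windows (6.16% of all windows), the GC box in 22 (56.3%), the TATA box in 6 (9.52%) and the cyclic AMP response element TGACGTCA in 0 (2.25%). A match is a string of letters and not a measured binding site.

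Peaks at TNF superfamily genes were more often lower than higher in sg1, with a larger share lower at ligand than at receptor genes, and most of them did not pass the test. Of the 290 peaks with enough counts to test, 58 were lower and 30 higher in sg1; 2 peaks were too low. Among all tested peaks inside or within 10 kb of a protein-coding gene, 15.5% were lower and 12.2% higher. These shares are also the scale for the counts of calls per gene and per locus below, which were not tested against them. The share lower was 20.0% for the family and the share higher 10.3%, with a median log2 fold change of -0.09 for the family and 0.04 for all such peaks. The sg1 and control libraries did not overlap at 194 of the 290 peaks (66.9%), against 63.5% of all such peaks. Called peaks changed by more than 2-fold in 24 lower and 5 higher cases; over all such peaks these were 7.86% lower and 4.41% higher. DESeq2 called fewer, 36 lower and 13 higher (8.92% and 5.15% of all such peaks). Leaving out sg1 replicate 1 gave 38 lower and 15 higher calls, and leaving out sg1 replicate 2 gave 35 lower and 12 higher.

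At ligand genes, 25 of 103 tested peaks were lower (24.3%) and 10 higher (9.71%), with a median log2 fold change of -0.19. At receptor genes, 33 of 187 were lower (17.6%) and 20 higher (10.7%), and the median was -0.04. DESeq2 called 18 lower and 3 higher peaks at ligand genes and 18 lower and 10 higher at receptor genes. Leaving out sg1 replicate 1 gave 18 lower and 3 higher at ligand genes and 20 lower and 12 higher at receptor genes. Leaving out sg1 replicate 2 gave 18 and 3 at ligand genes and 17 and 9 at receptor genes. Whether ligand and receptor genes differ in these shares was not tested, since peaks of 1 gene are not independent. Peaks at the ligand genes were the smaller and fainter ones, with a median length of 296 bp against 376 bp at receptor genes, and a median level per kb of 5.50 CPM in sg1 and 7.25 CPM in control, against 8.05 CPM in sg1 and 8.54 CPM in control at receptor genes. Within 1 kb of a gene's end, where 7.28% of all 23891 tested gene-end peaks were lower and 21.2% higher, the ligand genes had 8 of 20 lower and 2 higher. The receptor genes had 6 of 40 gene-end peaks lower and 7 higher. Of all family peaks, 27 lay at an end of a neighbouring gene that is no member, and some of these are also among the gene-end peaks just counted. Of the 27, 4 were lower and 9 higher, and without them the family counts were 54 lower and 21 higher.

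**Figure D1:**
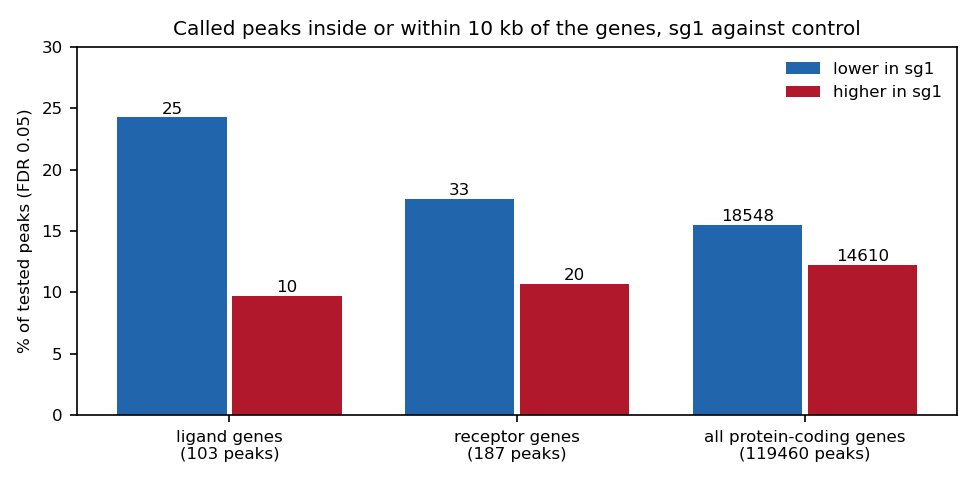
Share of tested peaks (%, y axis) called lower (blue) or higher (red) in sg1 against control at an FDR of 0.05, for ligand genes, receptor genes and all protein-coding genes; the number over each bar is the count of called peaks. The lower bar stands at 24.3% for ligand genes, 17.6% for receptor genes and 15.5% for all genes, and the higher bar at 9.71%, 10.7% and 12.2%.

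**Figure D2:**
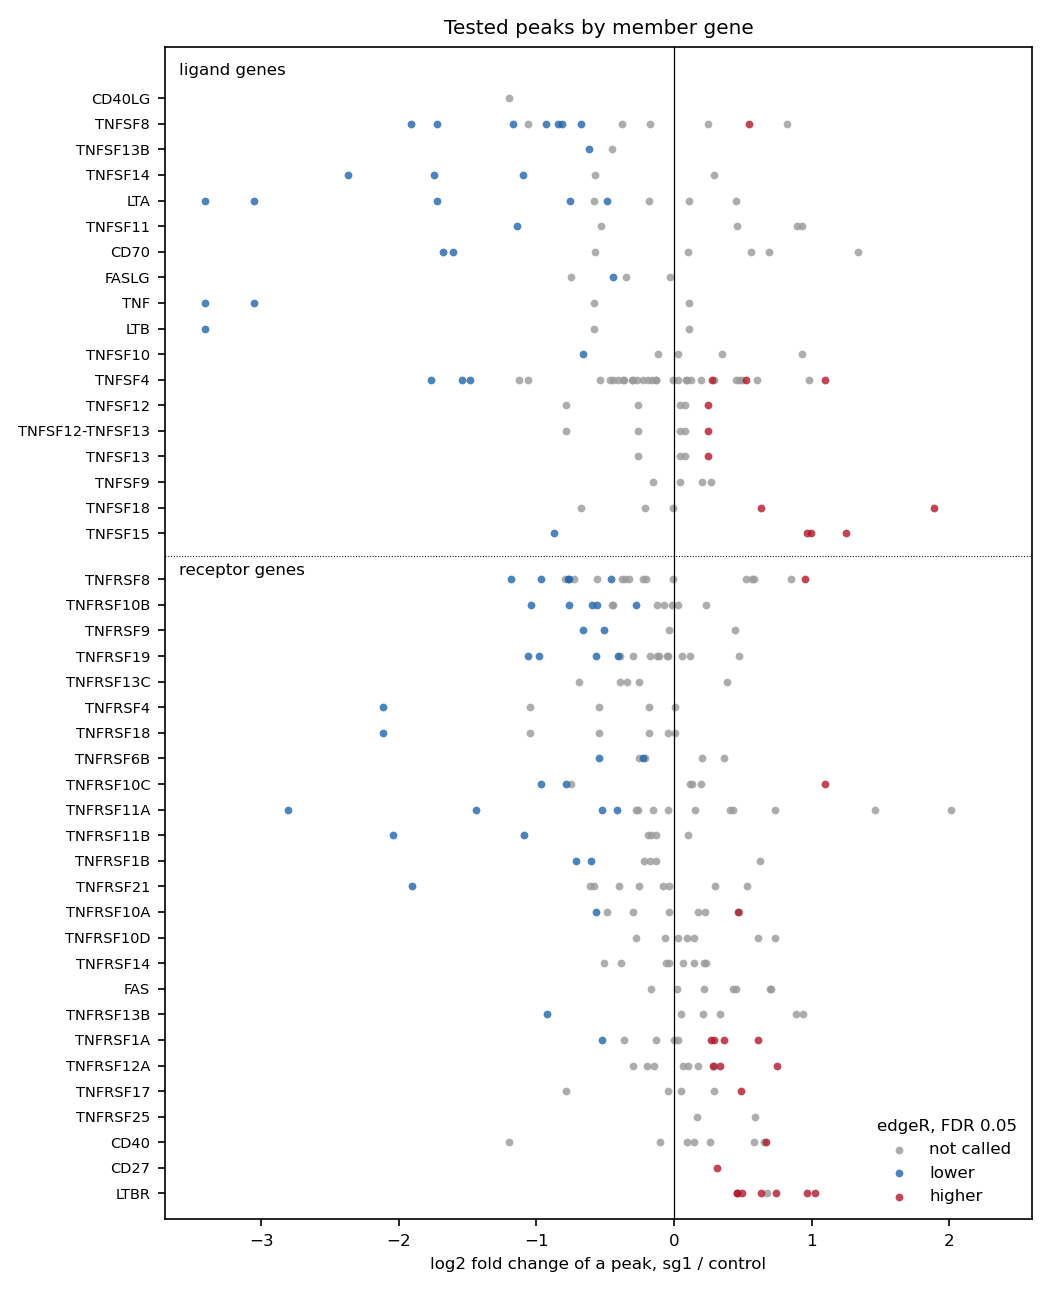
Each point is 1 tested peak, placed by its log2 fold change of sg1 against control (x axis) in the row of its gene; ligand genes are above the dotted line and receptor genes below it, blue and red mark lower and higher calls, and a peak shared by neighbouring genes is drawn in each row. The lowest point, at -3.41, is a peak shared by TNF, LTA and LTB and is drawn in their 3 rows. The next, at -3.05, is drawn in the LTA and TNF rows. The LTBR row has no point below 0.

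Among the ligands, TNFSF8 had the smallest p of the family. TNFSF8 encodes the CD30 ligand, which binds TNFRSF8 on activated lymphocytes. Its peak at the lower-coordinate end of the gene, chr9:114893320-114894128, was at 8.43 and 8.14 CPM in the sg1 libraries, against 29.0 and 33.7 CPM in the control libraries, from 373 and 321 counts in sg1 and 597 and 516 in control. Both sg1 libraries were far below both controls although they were sequenced more deeply. The log2 fold change was -1.91 (SE 0.10, adjusted p = 2.12e-16). Of the 13 tested peaks of TNFSF8, 7 were lower and 1 higher, and 5 of the 7 lower calls held in every alternative run. The second peak along, chr9:114894745-114895474, was at 21.4 and 21.3 CPM in sg1, against 38.1 and 38.4 CPM in control (log2 fold change -0.84, adjusted p = 2.63e-10). The others that fell had log2 fold changes between -0.67 and -1.72. The 1 higher peak, 7998 bp outside the gene (5.11 ± 0.196 CPM in sg1, 3.45 ± 0.824 CPM in control; adjusted p = 0.0425), was not called by DESeq2 (adjusted p = 0.182) or without sg1 replicate 1 (adjusted p = 0.123), sg1 replicate 2 (0.197) or control replicate 2 (0.275).

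TNFSF15 encodes TL1A, the ligand of TNFRSF25, and lies beside TNFSF8 on chromosome 9, where accessibility went both ways. Its peak 4787 bp outside the gene, chr9:114779204-114779848, was at 15.9 and 15.2 CPM in sg1, against 8.61 and 6.78 CPM in control (log2 fold change 1.00, SE 0.13, adjusted p = 2.05e-07). Inside the gene, the peak chr9:114804356-114804926 was at 4.57 and 4.97 CPM in sg1, against 2.04 and 2.94 CPM in control (log2 fold change 0.96, adjusted p = 0.00128). Both were higher in each sg1 library than in either control. Between these and TNFSF8, the peak at the higher-coordinate end of TNFSF15, chr9:114805593-114806428, fell to 2.76 and 2.49 CPM in sg1, against 4.28 and 5.41 CPM in control (log2 fold change -0.87, adjusted p = 0.00232). Over TNFSF8 and TNFSF15 together, 8 of 17 tested peaks were lower and 4 higher.

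TNF, lymphotoxin alpha (LTA) and lymphotoxin beta (LTB) lie side by side within the major histocompatibility complex on chromosome 6, and in these cells the peaks called lower lay outside the start windows. TNF is the founding cytokine of the family, and the lymphotoxins act as a soluble homotrimer and as a membrane complex that binds LTBR. A peak 68 bp past the 3′ end of TNF, chr6:31578404-31578881, was almost closed in sg1, with 0.362 and 0.431 CPM against 4.18 and 4.31 CPM in control, from 16 and 17 counts in sg1 and 86 and 66 in control. The groups were far apart, with a log2 fold change of -3.41 (SE 0.31, adjusted p = 2.01e-10), the most negative of all 290 tested peaks of the family. The peak at the lower-coordinate end of LTA, chr6:31559920-31560785, the tallest of the region, was at 23.8 and 25.3 CPM in sg1, against 34.1 and 34.8 CPM in control (log2 fold change -0.49, SE 0.08, adjusted p = 1.16e-05). Along the 3 genes, 5 of 9 tested peaks were lower and 0 higher; edgeR gave the same counts at an unadjusted p below 0.05, and DESeq2 gave 4 lower and 0 higher. The other 3 lower calls were of small peaks in or near LTA, with log2 fold changes of -1.72, -0.76 and -3.05. Each was lost without 1 library, which was sg1 replicate 1 for the first (adjusted p = 0.0526), control replicate 1 for the second (adjusted p = 0.144) and sg1 replicate 2 for the last (adjusted p = 0.124), a peak with only 4 and 1 counts in sg1 against 13 and 6 in control. The LTB gene-end peak was at 17.3 ± 0.547 CPM in sg1 and 16.2 ± 2.6 CPM in control and did not pass the test (adjusted p = 0.488).

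**Figure D3:**
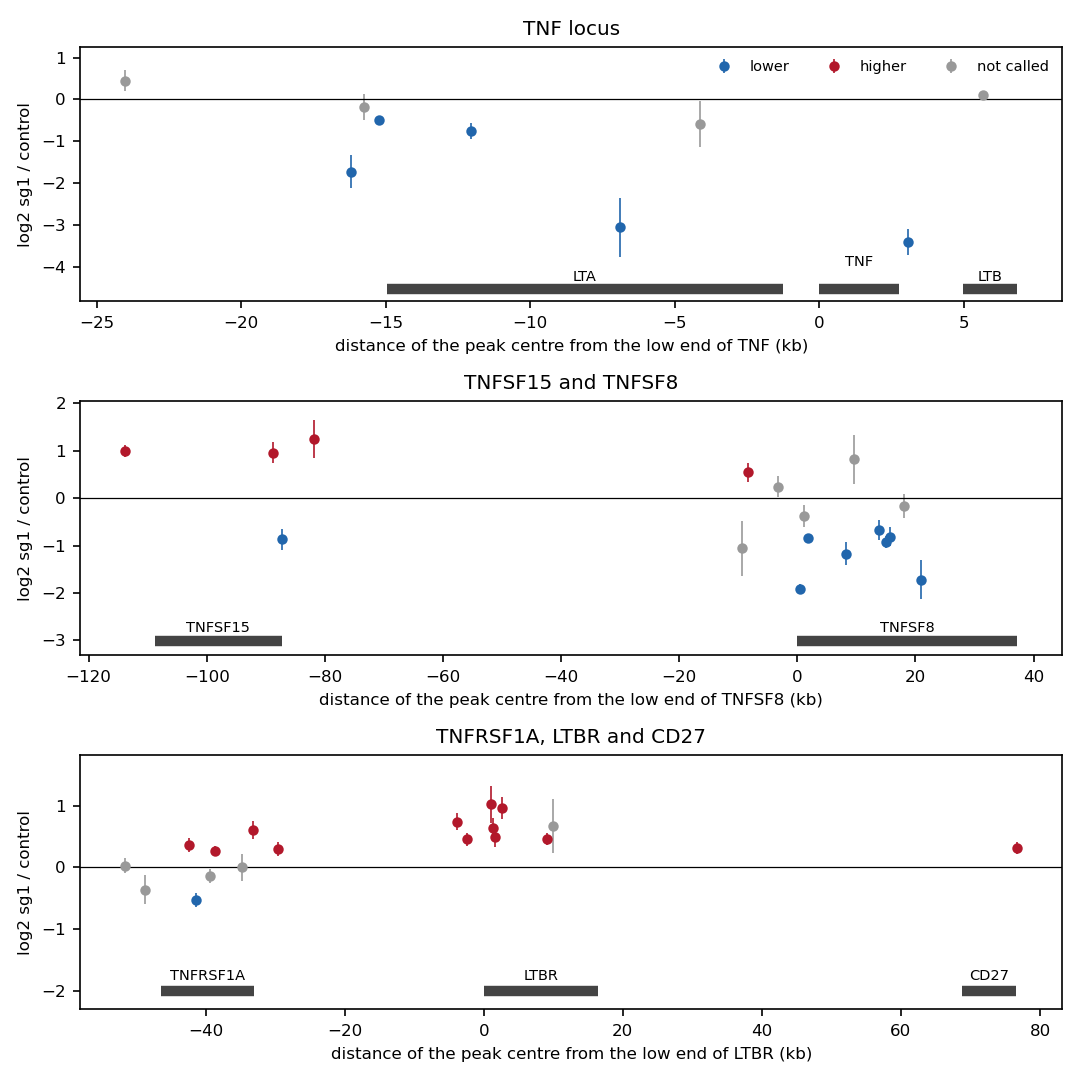
Log2 fold change of each tested peak (y axis, ± SE, sg1 against control) by the distance of its centre from the lower-coordinate end of a gene (x axis, kb) along the TNF locus (top), TNFSF15 and TNFSF8 (middle) and TNFRSF1A, LTBR and CD27 (bottom); blue is lower, red higher and grey not called at an FDR of 0.05, and dark bars are the genes. The top panel has 5 blue and 0 red points, the middle 8 blue and 4 red, and the bottom 1 blue and 12 red.

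TNFSF13B, which encodes the B cell survival factor BAFF, was the one ligand with a lower peak over its printed start window. The peak chr13:108269596-108270706 was at 9.27 and 8.07 CPM in sg1, against 13.1 and 13.6 CPM in control, from 410 and 318 counts in sg1 and 269 and 208 in control. Both sg1 libraries were below both controls (log2 fold change -0.62, SE 0.12, adjusted p = 0.000281). TNFSF14, which encodes LIGHT, a ligand of LTBR and TNFRSF14, fell at 3 of 5 tested peaks. Of these, the peak inside the gene at chr19:6663668-6664182 was at 0.972 and 1.39 CPM in sg1, against 4.04 and 3.85 CPM in control (log2 fold change -1.74, SE 0.26, adjusted p = 4.52e-06). Its gene-end peak, chr19:6661780-6662087, also fell, with 12 and 6 counts in sg1 against 21 and 19 in control (log2 fold change -2.37, adjusted p = 0.000395). The last of the 3, at an end of the complement gene C3, was lost without sg1 replicate 2 (log2 fold change -1.10, adjusted p = 0.00221 with all libraries and 0.115 without it).

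CD70, the ligand of CD27 on T cells, lies in the same stretch of chromosome 19 as TNFSF14 and TNFSF9. A gene-end peak, chr19:6590818-6591346, was at 0.588 and 1.17 CPM in sg1, against 3.45 and 2.02 CPM in control (log2 fold change -1.68, SE 0.33, adjusted p = 0.000188). A smaller neighbouring peak was also lower (log2 fold change -1.61, adjusted p = 0.0112), which DESeq2 left uncalled (adjusted p = 0.121) and which was lost without control replicate 1 (adjusted p = 0.197), sg1 replicate 1 (0.171) or sg1 replicate 2 (0.0515). The start of TNFSF9, whose product costimulates T cells through TNFRSF9, was at 15.8 ± 0.339 CPM in sg1 and 13.7 ± 0.394 CPM in control and did not pass (log2 fold change 0.20, adjusted p = 0.153). Along CD70, TNFSF9 and TNFSF14, 5 of 16 tested peaks were lower and 0 higher, with 5 lower and 1 higher at an unadjusted p below 0.05 and 4 lower and 0 higher by DESeq2.

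TNFSF11 encodes RANKL, which drives osteoclast formation and acts in bone metastasis. A peak inside it, chr13:42600759-42601506, was at 1.56 and 2.13 CPM in sg1, against 4.08 and 4.04 CPM in control (log2 fold change -1.14, SE 0.24, adjusted p = 0.000438). The ligands of the death receptors FAS and TNFRSF10A each had 1 lower peak. FASLG was lower at 1 of 4 peaks (8.77 and 9.10 CPM in sg1, against 11.8 and 12.7 CPM in control; log2 fold change -0.45, adjusted p = 0.00684), and TNFSF10, which encodes TRAIL, at 1 of 5 (3.71 and 4.21 CPM in sg1, against 7.15 and 5.22 CPM in control; log2 fold change -0.66, adjusted p = 0.00786). DESeq2 made neither call (adjusted p = 0.0560 for FASLG and 0.0670 for TNFSF10). The FASLG call was also lost without sg1 replicate 1 (adjusted p = 0.104) or sg1 replicate 2 (0.0597), and the TNFSF10 call without control replicate 1 (0.221) or sg1 replicate 1 (0.123). The peak over the TNFSF10 start was at 8.56 ± 0.561 CPM in sg1 and 8.42 ± 0.635 CPM in control (adjusted p = 0.909).

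On the long arm of chromosome 1, TNFSF18 and TNFSF4 encode the ligands of the T cell costimulatory receptors TNFRSF18 (GITR) and TNFRSF4 (OX40). A peak inside TNFSF18, chr1:173042637-173043844, was at 15.9 and 14.7 CPM in sg1, against 10.3 and 9.39 CPM in control (log2 fold change 0.63, SE 0.12, adjusted p = 8.64e-05). The faint peak over the printed TNFSF18 start window had 37 and 32 counts in sg1 against 7 and 1 in control (log2 fold change 1.89, adjusted p = 0.0119). DESeq2 did not call it (adjusted p = 0.125), and it was lost without sg1 replicate 1 (adjusted p = 0.0820), sg1 replicate 2 (0.0632) or control replicate 2 (0.105). TNFSF4, the longest locus of the family by peaks with 34, had 3 lower and 3 higher calls. Of these, the peak chr1:173331289-173331496, inside the gene, held in every alternative, with 16 and 14 counts in sg1 against 25 and 19 in control (log2 fold change -1.76, SE 0.44, adjusted p = 0.00235). The higher peak with the smallest p, chr1:173424850-173425343, inside the gene, was at 5.86 ± 0.426 CPM in sg1 and 4.06 ± 0.0281 CPM in control (log2 fold change 0.53, adjusted p = 0.0303). It was lost without sg1 replicate 1 (adjusted p = 0.0838), control replicate 1 (0.0857) or control replicate 2 (0.0621). DESeq2 called none of these other 5 TNFSF4 peaks, with adjusted p between 0.106 and 0.244. On chromosome 17, TNFSF12 (TWEAK), TNFSF13 (APRIL) and their read-through gene TNFSF12-TNFSF13 share their 5 peaks. Of these 5, 0 were lower (1 at an unadjusted p below 0.05, and 0 by DESeq2) and 1 was higher, at an end of TNFSF13 and of SENP3 (24.3 ± 0.305 CPM in sg1, 20.5 ± 0.757 CPM in control; adjusted p = 0.0306; 0.143 by DESeq2, 0.168 without sg1 replicate 1 and 0.113 without sg1 replicate 2). CD40LG had 1 tested peak and TNFSF9 had 4, with 0 calls; at an unadjusted p below 0.05 edgeR gave 1 lower at CD40LG and 1 higher at TNFSF9, and DESeq2 called 0.

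Receptors of the chromosome 12 locus had more gains than losses. LTBR, the lymphotoxin beta receptor, which activates the non-canonical NF-kB pathway, was higher in sg1 at 7 of its 8 tested peaks and lower at 0 (7 higher and 0 lower at an unadjusted p below 0.05; 5 higher and 0 lower by DESeq2). The peak chr12:6377623-6378012, inside the gene, was at 6.85 and 7.25 CPM in sg1, against 3.84 and 3.33 CPM in control (log2 fold change 0.96, SE 0.18, adjusted p = 0.000112). It also lies at an end of the neighbouring sodium channel gene SCNN1A. The peak over the printed start window, chr12:6383637-6384990, was at 23.3 and 23.8 CPM in sg1, against 18.7 and 15.4 CPM in control (log2 fold change 0.46, SE 0.10, adjusted p = 0.000429). In each of the 2, both sg1 libraries lay above both controls. The other 5 higher peaks had log2 fold changes between 0.46 and 1.02. Of all LTBR peaks, 3 lie at an end of SCNN1A, chr12:6377623-6378012 among them. The calls at 3 of the 7 were lost without 1 library: the first without control replicate 1 (adjusted p = 0.0508), the second without sg1 replicate 1 (0.0905) or control replicate 2 (0.0872), and the third without sg1 replicate 1 (0.0756), sg1 replicate 2 (0.155) or control replicate 1 (0.0806).

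TNFRSF1A, the main receptor of soluble TNF and a death domain receptor, lies next to LTBR and had 4 higher peaks and 1 lower. The peak over its printed start window, chr12:6341632-6342212, was at 9.74 and 10.3 CPM in sg1, against 6.32 and 6.85 CPM in control (log2 fold change 0.61, SE 0.14, adjusted p = 0.00152). The 1 lower peak, inside the gene at chr12:6333608-6333985, was at 12.8 and 11.6 CPM in sg1, against 19.3 and 15.7 CPM in control (log2 fold change -0.53, SE 0.11, adjusted p = 0.000445). These 2 calls held in every alternative. The other 3 higher peaks had log2 fold changes of 0.36, 0.27 and 0.29 and were each lost without sg1 replicate 2 (adjusted p = 0.0919, 0.0782 and 0.318); the last was lost under the replicate block too. CD27, the lymphocyte receptor of CD70, had a single peak, at the end it shares with TAPBPL, at 21.9 and 23.8 CPM in sg1 against 18.2 and 18.6 CPM in control (log2 fold change 0.31, adjusted p = 0.00966; 0.0660 by DESeq2 and 0.144 without sg1 replicate 2). Along the 3 receptor genes, 12 of 18 tested peaks were higher and 1 lower (7 higher and 1 lower by DESeq2).

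The TRAIL receptors lie in a row on chromosome 8. TNFRSF10A and TNFRSF10B carry a death domain and start apoptosis, and TNFRSF10C and TNFRSF10D are decoys. TNFRSF10B fell at 5 of 12 peaks and rose at 0 (6 lower and 0 higher at an unadjusted p below 0.05; 3 lower and 0 higher by DESeq2). The peak chr8:23064408-23065411, inside TNFRSF10B, was at 19.0 and 16.9 CPM in sg1, against 27.5 and 26.7 CPM in control (log2 fold change -0.60, SE 0.09, adjusted p = 3.81e-06). The peak chr8:23074364-23075424, outside the gene, was at 20.9 and 19.4 CPM in sg1, against 31.1 and 28.2 CPM in control (log2 fold change -0.56, SE 0.09, adjusted p = 5.05e-06). In both, each sg1 library lay below each control, while the tallest TNFRSF10B peak at the gene's higher-coordinate end was at 9.22 ± 0.771 CPM in sg1 and 9.69 ± 0.0494 CPM in control (adjusted p = 0.737). The other 3 lower calls were each lost without at least 1 library, with adjusted p up to 0.428, 0.0888 and 0.438, all without an sg1 library. TNFRSF10A had 1 lower peak inside the gene (8.34 and 9.16 CPM in sg1, against 14.7 and 10.9 CPM in control; log2 fold change -0.57, adjusted p = 0.00144, and 0.143 without control replicate 1). Its gene-end peak was higher (13.1 and 14 CPM in sg1, against 10.1 and 9.52 CPM in control; log2 fold change 0.47, adjusted p = 0.00330, and 0.0617 without sg1 replicate 2). The decoy TNFRSF10C had 2 lower peaks and 1 higher. It fell most 2739 bp outside the gene, at chr8:23120184-23120685 (2.64 and 2.94 CPM in sg1, against 5.01 and 6 CPM in control; log2 fold change -0.97, adjusted p = 0.000441). The higher peak, chr8:23105931-23106185, inside the gene, had 72 and 53 counts in sg1 against 16 and 9 in control (log2 fold change 1.10, adjusted p = 0.0242), a call lost with DESeq2 (adjusted p = 0.178) and without sg1 replicate 1 (0.194), sg1 replicate 2 (0.0553) or control replicate 2 (0.0876). TNFRSF10D had 0 calls among 7 peaks, 0 at an unadjusted p below 0.05 and 0 by DESeq2. Along the 4 genes, 8 of 34 tested peaks were lower and 2 higher.

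Of the other death domain receptors, TNFRSF21 fell at 1 of 9 peaks, a faint one inside the gene with 13 and 19 counts in sg1 against 29 and 23 in control (log2 fold change -1.91, SE 0.42, adjusted p = 0.000748); its tall start peak was at 28.4 ± 1.35 CPM in sg1 and 29.1 ± 0.0590 CPM in control (adjusted p = 0.770). FAS, the receptor of FASLG, had 0 calls among 7 tested peaks and TNFRSF25, the receptor of TNFSF15, 0 among 2; at an unadjusted p below 0.05 edgeR gave 1 higher at FAS and 0 at TNFRSF25, and DESeq2 called 0 at either. Both remaining decoys had 2 lower peaks and 0 higher. TNFRSF6B (decoy receptor 3, which binds FASLG, TNFSF14 and TNFSF15) fell most at its higher-coordinate end, in the peak chr20:63698646-63699670, shared with ARFRP1, with 37.5 and 36.9 CPM in sg1, against 57.0 and 51.1 CPM in control (log2 fold change -0.54, SE 0.07, adjusted p = 2.24e-07). TNFRSF11B encodes osteoprotegerin, the soluble decoy of RANKL. Its faint gene-end peak had 15 and 3 counts in sg1 against 19 and 13 in control (log2 fold change -2.04, adjusted p = 0.00444), a call lost with DESeq2 (adjusted p = 0.0676) and without sg1 replicate 2 (0.178). At an unadjusted p below 0.05 edgeR gave 1 higher peak at TNFRSF6B and 0 at TNFRSF11B, and DESeq2 called 2 lower at TNFRSF6B, 0 lower at TNFRSF11B and 0 higher at either.

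Of the 114 tested peaks at the 15 signalling receptor genes without a death domain, 19 were lower (16.7%) and 14 higher (12.3%), close to the shares over all peaks near genes; DESeq2 called 9 lower and 7 higher. TNFRSF8 encodes CD30, the receptor of TNFSF8, so that both genes of this pair lost accessibility. Its gene-end peak, chr1:12143348-12144235, was at 20.9 and 21.5 CPM in sg1, against 34.9 and 37.2 CPM in control (log2 fold change -0.77, SE 0.08, adjusted p = 3.70e-09). Beyond that end by 8764 bp, the peak chr1:12152971-12153844 was at 16.9 and 17.2 CPM in sg1, against 29.1 and 28.8 CPM in control (log2 fold change -0.77, SE 0.09, adjusted p = 1.77e-08). The groups did not overlap in either, and of all 19 TNFRSF8 peaks 5 were lower and 1 higher. The higher call (log2 fold change 0.95, adjusted p = 0.0442) was not made by DESeq2 (adjusted p = 0.25) or without sg1 replicate 1 (0.149), sg1 replicate 2 (0.179) or control replicate 1 (0.236).

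TNFRSF19, an orphan receptor also called TROY, fell at 4 of 14 peaks and rose at 0 (5 lower and 0 higher at an unadjusted p below 0.05; 3 lower and 0 higher by DESeq2). The peak chr13:23620964-23621641, inside the gene, was at 9.13 and 10.1 CPM in sg1, against 20.2 and 19.8 CPM in control (log2 fold change -1.06, SE 0.11, adjusted p = 1.96e-09), and the groups were well apart. TNFRSF11A encodes RANK, the receptor of RANKL, and also fell at 4 of 14 peaks and rose at 0 (4 lower and 2 higher at an unadjusted p below 0.05; 1 lower and 0 higher by DESeq2). The peak chr18:62379086-62379474, inside the gene, had 21 and 9 counts in sg1 against 56 and 35 in control, or 0.475 and 0.228 CPM in sg1 against 2.72 and 2.28 CPM in control (log2 fold change -2.81, SE 0.38, adjusted p = 5.49e-07). DESeq2 made none of the other 3 RANK calls, with adjusted p between 0.0671 and 0.212.

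TNFRSF9 costimulates T cells and is the receptor of TNFSF9. The peak over its printed start window, which holds the NF-kB consensus and an AP-1 motif, was at 3.68 and 2.74 CPM in sg1, against 4.52 and 5.81 CPM in control (chr1:7940748-7941549; log2 fold change -0.67, SE 0.21, adjusted p = 0.0160). DESeq2 did not call it (adjusted p = 0.0957), and it was lost without sg1 replicate 2 (adjusted p = 0.266) or control replicate 2 (0.119). TNFRSF1B, the second TNF receptor, had 2 lower peaks inside the gene (log2 fold changes -0.71 and -0.61, adjusted p = 0.00452 and 0.0313), both lost without control replicate 1 (adjusted p = 0.158 and 0.443) or sg1 replicate 1 (0.0663 and 0.162). The OX40 and GITR genes TNFRSF4 and TNFRSF18 share a lower peak of few reads, 4 and 7 counts in sg1 against 12 and 9 in control (log2 fold change -2.11, adjusted p = 0.00681; 0.235 without sg1 replicate 1, 0.0820 without sg1 replicate 2 and 0.0535 without control replicate 1). Along the 7 receptor genes of the short arm of chromosome 1 (TNFRSF4, TNFRSF18, TNFRSF14, TNFRSF25, TNFRSF9, TNFRSF8 and TNFRSF1B), 10 of 45 tested peaks were lower and 1 higher. These are 22.2% and 2.22%, where 15.5% of all tested peaks near genes were lower and 12.2% higher.

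Gains outside chromosome 12 were few. TNFRSF12A encodes FN14, the receptor of TWEAK. Its peak chr16:3022973-3024496, 590 bp past the gene and also at the ends of HCFC1R1 and THOC6, was at 56.8 and 54.5 CPM in sg1, against 45.4 and 46.1 CPM in control (log2 fold change 0.28, SE 0.07, adjusted p = 0.00118). It is among 3 higher and 0 lower calls at 10 peaks (3 higher and 0 lower at an unadjusted p below 0.05; 1 higher and 0 lower by DESeq2). CD40, which activates B cells and myeloid cells, was higher at 1 of 8 peaks, at its lower-coordinate end (4.18 and 4.54 CPM in sg1, against 2.43 and 3.13 CPM in control; log2 fold change 0.66, adjusted p = 0.0211), a call lost with DESeq2 (adjusted p = 0.130) and without sg1 replicate 2 (0.153), sg1 replicate 1 (0.0727) or control replicate 1 (0.197). The higher peak counted for TNFRSF17, the plasma cell receptor BCMA, lies 7950 bp away at the ends of NPIPB2 and SNX29 (log2 fold change 0.49, adjusted p = 0.00546; 0.0830 without sg1 replicate 2 and 0.0694 without control replicate 1). TNFRSF13B (TACI), which binds BAFF and APRIL, had 1 lower peak of few reads 8689 bp outside the gene (adjusted p = 0.0427; 0.212 by DESeq2, 0.0537 with library size only, 0.237 without sg1 replicate 2 and 0.341 without control replicate 2). TNFRSF13C, the BAFF receptor, and TNFRSF14, the receptor of LIGHT, had 0 calls; at an unadjusted p below 0.05 edgeR gave 1 lower at TNFRSF13C and 1 higher at TNFRSF14, and DESeq2 called 0 at either.

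**Figure D4:**
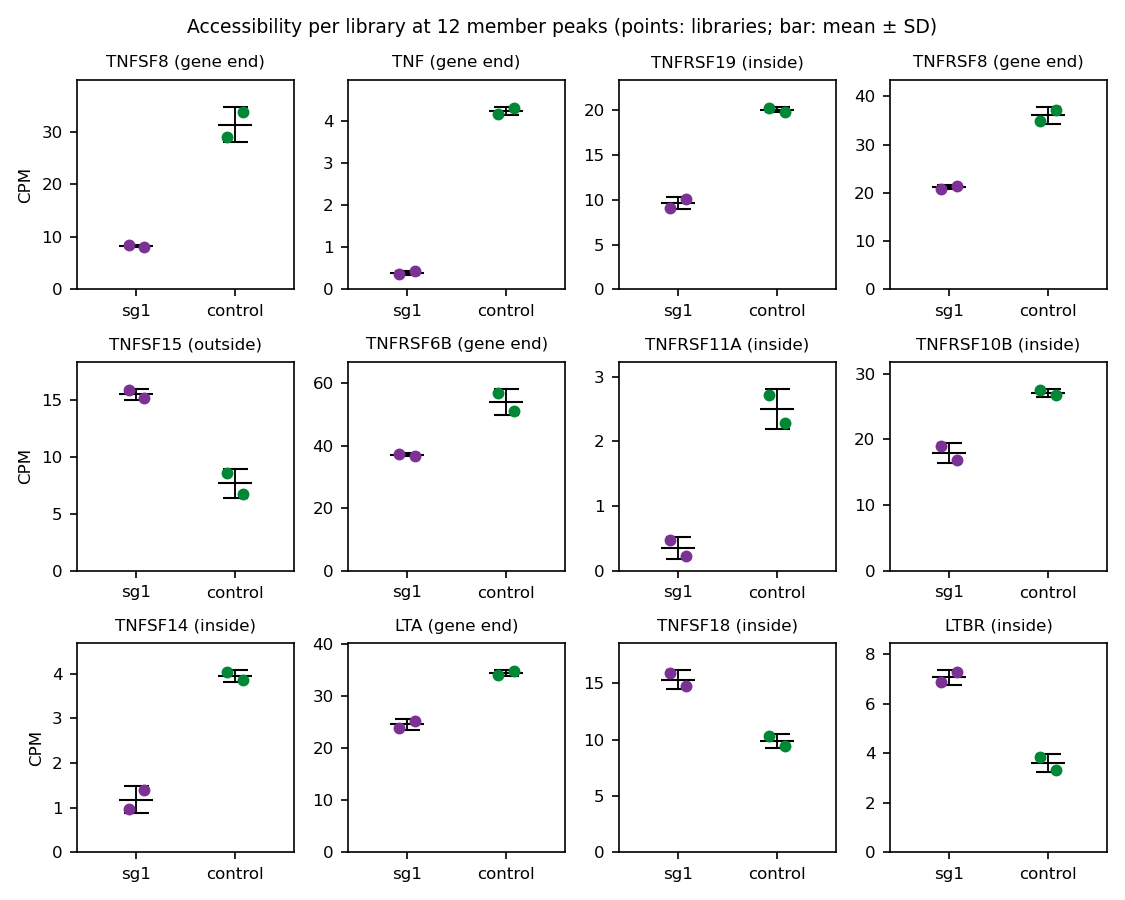
CPM of each library (y axis, from 0) at 12 peaks of the family, with the 2 sg1 libraries (purple) left of the 2 control libraries (green); the wide bar is the mean and the whiskers 1 SD. The panels are the called peaks with the smallest p, 1 per gene. The groups did not overlap at any of the 58 lower and 30 higher calls of the family. That they do not overlap in any panel thus follows from this choice. In the panels of TNFSF15, TNFSF18 and LTBR sg1 is the higher, and in the other 9 the lower.

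Summed over all peaks of a gene, which gives 1 value per gene, accessibility was lower in sg1 at 17 of the 43 genes and higher at 9, where 22.1% of the summed values of all 18552 protein-coding genes tested were lower and 30.4% higher. The median log2 fold change was -0.21 for the family and 0.05 for all genes. With library sizes alone as the scaling, 13 genes of the family were lower and 11 higher; DESeq2 gave 13 lower and 8 higher (18.9% and 25.8% of all genes). Without sg1 replicate 1 the test called 11 lower and 5 higher, and without sg1 replicate 2 it called 9 lower and 4 higher. Neighbouring genes share peaks, so these values are not independent.

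By this sum TNFSF8 fell most among the called genes, with 60.6 and 59.2 CPM in sg1, against 109 and 116 CPM in control (log2 fold change -0.91, SE 0.05, adjusted p over all genes = 6.95e-43). TNFSF13B followed (10.3 and 10.0 CPM in sg1, against 14.9 and 15.9 CPM in control; log2 fold change -0.59), and then TNFRSF8 (83.3 and 82.2 CPM in sg1, against 118 and 122 CPM in control; log2 fold change -0.53). In all of these both sg1 libraries were below both controls. TNFSF15 rose most (24.6 and 23.9 CPM in sg1, against 15.6 and 15.6 CPM in control; log2 fold change 0.64, SE 0.10, adjusted p = 1.72e-08), and LTBR next (77.2 and 78.4 CPM in sg1, against 53.2 and 51.4 CPM in control; log2 fold change 0.57, SE 0.06, adjusted p = 1.43e-18). The sums at LTA, TNFRSF10B, TNFRSF19, TNFRSF6B and TNFRSF11A also fell, with log2 fold changes between -0.25 and -0.40, and that at TNFRSF12A rose by 0.18. These 6 and the 5 named before them are the 11 of 26 called genes whose summed call held in every alternative.

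By role, the sums were lower at 6 and higher at 3 of 18 ligand genes, lower at 1 and higher at 1 of 6 death domain receptors, lower at 3 of 4 decoy receptors, and lower at 7 and higher at 5 of 15 other receptors. For scale, 22.1% of the sums of all 18552 genes tested were lower and 30.4% higher. Whether any role differs from these shares was not tested. DESeq2 gave 2 lower decoy receptors, and 5 lower and 5 higher other receptors. Without sg1 replicate 1 there were 3 lower and 1 higher ligand genes, 2 lower decoy receptors, and 5 lower and 3 higher other receptors. Without sg1 replicate 2 there were 4 lower and 2 higher ligand genes, 1 lower decoy receptor, and 3 lower and 2 higher other receptors. The 1 higher death domain receptor, TNFRSF1A, was lost without sg1 replicate 2 or control replicate 2. Without control replicate 2 there was 1 lower decoy receptor. Without control replicate 1 there were 2 higher ligand genes. Ligand and receptor did not always move together. At the pair TNFSF8 and TNFRSF8 both sums were lower. The CD70 sum was not called (log2 fold change -0.31, edgeR adjusted p = 0.0560). That of its receptor CD27, a single peak shared with TAPBPL, was higher (log2 fold change 0.31, edgeR adjusted p = 0.00475). The TNFSF14 sum was lower (log2 fold change -0.43). Of its 2 receptors, LTBR was higher (0.57) and TNFRSF14 was not called (0.09, edgeR adjusted p = 0.169). The CD27 and TNFSF14 calls did not hold in every alternative. TNFSF15 was higher in its sum (log2 fold change 0.64) and its receptor TNFRSF25 did not pass (log2 fold change 0.24, adjusted p = 0.305). The TNF sum was lower, at 17.6 and 18.6 CPM in sg1 against 19.6 and 23.4 CPM in control (log2 fold change -0.24, edgeR adjusted p = 0.0385). Most of that sum was the uncalled LTB gene-end peak (17.3 CPM in sg1, 16.2 CPM in control). The peak past the 3′ end of TNF was at 0.396 CPM in sg1 and 4.24 CPM in control. The sum of the TNF receptor TNFRSF1A was higher, at 120 and 122 CPM in sg1 against 115 and 109 CPM in control (log2 fold change 0.11, edgeR adjusted p = 0.0159). The TNF sum was lost with DESeq2 (adjusted p = 0.0914), with library size only (0.0945), and without sg1 replicate 1 (0.276), sg1 replicate 2 (0.118) or control replicate 2 (0.416), and the TNFRSF1A sum without sg1 replicate 2 (0.0796) or control replicate 2 (0.150).

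**Figure D5:**
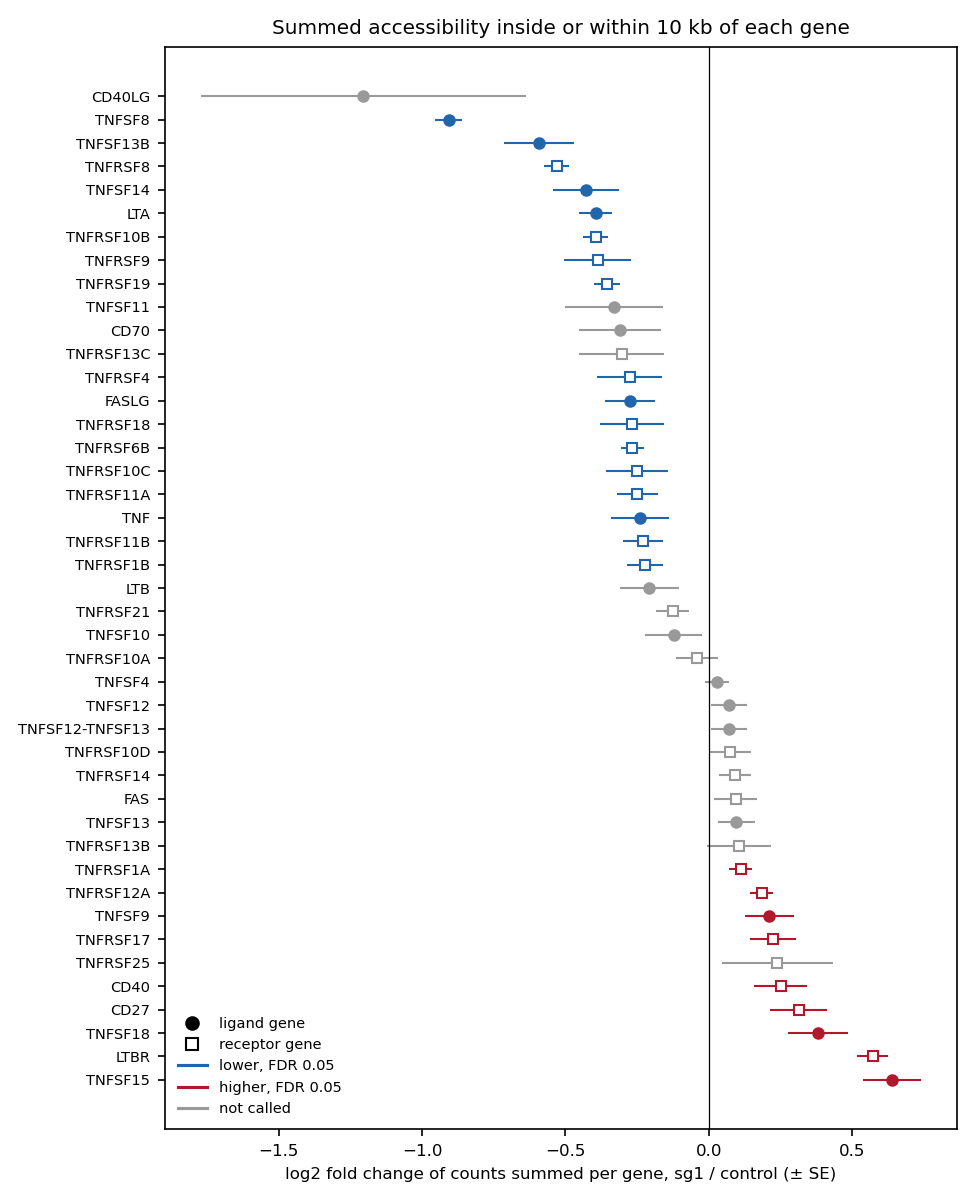
Log2 fold change (x axis, ± SE, sg1 against control) of the counts summed over all peaks inside or within 10 kb of each of the 43 genes; filled circles are ligand genes, open squares receptor genes, and blue, red and grey mark lower, higher and not called at an FDR of 0.05. TNFSF8 is the lowest called gene at -0.91 and TNFSF15 the highest at 0.64; CD40LG, at the top, rests on 1 faint peak.

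Genes that carry the family's signals were read at their tallest gene-end peak, for a list of 44 adaptors, NF-kB components and ligand-processing enzymes. Of 43 tested, 11 were lower and 10 higher, where 8.94% of such peaks over all genes were lower and 30.6% higher; the median log2 fold change was 0.00 for the list and 0.15 for all genes. BIRC3, an inhibitor of apoptosis recruited to TNF receptors, fell to 33.2 ± 0.715 CPM in sg1, against 55.0 ± 5.23 CPM in control (log2 fold change -0.73, adjusted p = 8.93e-10). NFKB2, the NF-kB subunit of the non-canonical pathway, fell to 39.3 ± 0.572 CPM in sg1, against 53.0 ± 0.348 CPM in control (log2 fold change -0.43, adjusted p = 5.78e-06), and NFKBIA, the inhibitor of NF-kB, to 34.0 ± 2.75 CPM in sg1, against 45.9 ± 1.04 CPM in control (log2 fold change -0.43, adjusted p = 2.30e-05). The proteases FURIN and ADAM17, the second of which sheds TNF, were lower as well (log2 fold changes -0.36 and -0.34, adjusted p = 0.000210 and 0.000333).

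Among the genes that rose, RBCK1, a subunit of the linear ubiquitin ligase, was at 29.6 ± 1.37 CPM in sg1 and 20.8 ± 2.17 CPM in control (log2 fold change 0.50, adjusted p = 4.29e-05). MAP3K14, the kinase that acts downstream of LTBR, was at 42.6 ± 1.64 CPM in sg1 and 32.3 ± 0.246 CPM in control (log2 fold change 0.40, adjusted p = 7.38e-05). TRAF5, an adaptor, and RHBDF2, which helps ADAM17 reach the surface, were also higher (log2 fold changes 0.63 and 0.50). RELA was at 24.5 ± 0.437 CPM in sg1 and 20.4 ± 0.0944 CPM in control (adjusted p = 0.0210, and 0.109 by DESeq2). TNFAIP3, which switches TNF signalling off, was at 20.2 ± 1.11 CPM in sg1 and 21.8 ± 3.82 CPM in control and did not pass (adjusted p = 0.386). DESeq2 called 9 lower and 5 higher genes of the list, and without sg1 replicate 1, sg1 replicate 2 and control replicate 1 edgeR called 5, 6 and 6 higher.

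Since much of the family is known from lymphocytes and myeloid cells, their markers were read the same way. Of 10 such genes, 8 had a tested gene-end peak, 3 were lower (CD3E, LAPTM5 and CD68) and 0 higher (3 lower and 0 higher at an unadjusted p below 0.05; 1 lower and 0 higher by DESeq2). Over all genes, 8.94% of such peaks were lower and 30.6% higher. Whether the markers differ from these shares was not tested. The summed level of the 8 tested peaks was 160.9 CPM in sg1 and 187.6 CPM in control. PTPRC, the pan-leukocyte gene, was at 0.470 ± 0.198 CPM in sg1 and 0.862 ± 0.257 CPM in control, and MS4A1 had no gene-end peak. The part of such cells in the results was not tested.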

How the data were processed

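The deposited table holds raw counts, which are whole-number counts per peak that the authors made with featureCounts 1.6.0, per the file headers. Reads were trimmed with Trimmomatic 0.39, aligned with Bowtie2 and called into peaks with MACS2 2.2.4, per the submitters' processing notes; no source used here names the genome build. With RefSeq GRCh38.p14 genes, 73.4% of 20037 genes had a peak at an end, against 30.9% and 31.1% with genes shifted by 100 kb either way, and the positions were read as GRCh38.

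From the counts, 109 peaks in the first 250 kb of chromosome 1, which took 25.4% of counts in both sg1 libraries and 18.0% and 17.9% in the control libraries, were left out. The rest were fitted together in edgeR 4.0.16 (filterByExpr, TMM factors 0.981 to 1.02, quasi-likelihood F test, group as the only term, Benjamini-Hochberg over 184717 peaks; 5522 were too low). The biological coefficient of variation was 8.13%. SE is the log2 fold change divided by the square root of F. Summed counts per gene were fitted with the same library sizes. DESeq2 1.42.0 (R 4.3.3) was an alternative. The scripts were tested on simulated data.

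The members and gene lists were chosen with earlier results of these data known. Peaks named are each gene's called peak with the smallest p per direction and its tallest gene-end peak, with all libraries for about 30; further peaks complete counts or were chosen after their values were seen. Tables were handled in Python 3.11.15 with pandas 2.3.3 and numpy 2.4.6, and figures drawn in matplotlib 3.10.9.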

Additional observations from a re-analysis of the deposited data

How the results depend on the processing

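Of the 88 called peaks, 36 kept their call in all alternatives run, and of the 26 called gene sums 11 did. Leaving out each library in turn gave 35 to 54 lower and 12 to 26 higher peaks over the family, 18 to 22 lower and 3 to 9 higher at ligand genes, 17 to 33 lower and 9 to 18 higher at receptor genes, 5 to 10 higher signalling genes, and 9 to 16 lower and 4 to 8 higher gene sums. DESeq2 gave 36 lower and 13 higher family peaks, 3 higher at ligand genes, 18 lower and 10 higher at receptor genes, and 5 higher signalling genes. Taking peaks within 50 kb gave 121 lower and 63 higher, with 56 lower at ligand genes and 65 lower and 49 higher at receptor genes; leaving out ends of other genes gave 12 higher at receptor genes. The values that changed sign were uncalled in the reported fit. With library size only, these were the TNFRSF10A sum (log2 fold change 0.00703) and the TNFRSF21 start peak (0.0103). Without 1 library, the ranges of log2 fold changes that cross 0 were -0.094 to 0.0194 for the TNFRSF10A sum, -0.00142 to 0.169 for the TNFRSF14 sum, and, for the tallest gene-end peaks, -0.172 to 0.259 at TNFRSF18, -0.0676 to 0.0265 at TNFRSF21, -0.456 to 0.119 at TNFRSF1B, -0.0569 to 0.108 at TNFSF10, -0.0028 to 0.235 at CD70, -0.0652 to 0.265 at LTB, -0.0511 to 0.298 at TNFRSF10C and -0.0358 to 0.108 at TNFSF12. The cause was not tested. The replicate numbers share only a number: deviations of same-numbered libraries correlated at 0.00013. With the number as a replicate block, 58 family peaks were lower and 30 higher, 25 and 10 at ligand genes, 33 and 20 at receptor genes, 11 and 9 signalling genes and 16 and 9 gene sums. At this depth 2 of the 292 family peaks were too low to test.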

Other observations

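Genes of the wider TNF family whose symbols fall outside the rule were read at their tallest gene-end peak. EDA, the ectodysplasin ligand, fell to 8.81 ± 0.196 CPM in sg1, against 11.9 ± 0.534 CPM in control (SD, n = 2 each; log2 fold change -0.44, edgeR adjusted p = 0.00821). NGFR, the low-affinity neurotrophin receptor, was at 12.1 ± 0.900 CPM in sg1 and 9.13 ± 1.11 CPM in control and was called higher (log2 fold change 0.39, edgeR adjusted p = 0.0205). DESeq2 made neither call (adjusted p = 0.0658 for EDA and 0.113 for NGFR). EDAR and RELT did not pass, with log2 fold changes of -0.06 and 0.21, and EDA2R had no gene-end peak.

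Markers of luminal breast cells were read in the same way. GATA3, a luminal transcription factor, rose to 8.20 ± 0.735 CPM in sg1, against 4.82 ± 0.542 CPM in control (log2 fold change 0.76, edgeR adjusted p = 0.000662; 0.00767 by DESeq2), and KRT19, a luminal keratin, was at 14.9 ± 0.630 CPM in sg1 and 11.6 ± 0.685 CPM in control (log2 fold change 0.36, edgeR adjusted p = 0.0147; 0.0936 by DESeq2). FOXA1 (11.0 CPM in sg1, 10.1 CPM in control), PGR (2.63 and 2.32 CPM) and CDH1 (0.278 and 0.618 CPM) did not pass, and ESR1 had no gene-end peak. Of these 5 tested genes 2 were higher and 0 lower, where 30.6% of such peaks over all genes were higher and 8.94% lower, so that the count says little about luminal genes; at an unadjusted p under 0.05 edgeR also found 2 higher and 0 lower, and DESeq2 called 1 higher and 0 lower.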
